A study of Homo sapiens with 6 samples.

Results

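The cytosolic ribosomal protein genes encode the protein part of the 80S ribosome, and 75 of the 20683 gene rows in each count file carry such a name. They were chosen by symbol alone: RPL or RPS, an optional P, a number and an optional A or X, plus RPSA. Of these, 45 encode proteins of the large (60S) subunit and 30 proteins of the small (40S) subunit. The symbol rule leaves out genes such as FAU and RACK1, which encode ribosomal proteins under other names and are given separately here. RPL41 was not analysed here.

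The libraries came from HT-1080, an established human fibrosarcoma line. In 3 samples the cells received SLV-8472-01, an inhibitor of the kinase IRAK4, at a concentration that the labels write as 5 mM and that could not be checked here, and in 3 samples 0.1% DMSO, its solvent; RNA was taken after 24 h in both groups. The line is a single tumour-derived culture with no untreated group beside the solvent control, so the comparison is of inhibitor with DMSO only. The replicates are biological per the series' text, and the p-values measure the spread between these libraries. DMSO 3 stood apart: per gene, the chi-square per degree of freedom was 36.7 between DMSO 1 and 3 and 24.6 between DMSO 2 and 3, against 9.88 between DMSO 1 and 2 and 5.17 to 6.62 between inhibitor libraries, so the counts are given with and without it. Totals ranged from 9162281 to 13184553 counts per library. The mesenchymal markers VIM (5315 to 6458 CPM, the count scaled to a common library size), SPARC (1583 to 2178 CPM) and MMP14 (1272 to 2204 CPM) were present, while CDH1, KRT5, PTPRC, CD3E and VWF had no count in any library.

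Ribosomal proteins are made in nearly equal numbers and assembled with ribosomal RNA in the nucleolus, and growing cells spend much of their transcription and translation on them. Their mRNAs typically begin with a C followed by a run of pyrimidines, the terminal oligopyrimidine (TOP) tract, through which mTORC1 and the RNA-binding protein LARP1 control how strongly they are translated and how stable they are. The proteins of the small subunit line the decoding site and the mRNA channel, and those of the large subunit surround the peptidyl transferase centre, the exit tunnel and the stalk that recruits translation factors. An mRNA count says nothing of how much of each mRNA was translated.

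The TOP tract is the feature that the members share in sequence, and the annotated starts of members described below show it. Each line gives 15 bases before the annotated start and 15 bases from it on the coding strand, from RefSeq on GRCh38.p14, with the pyrimidine run that starts with C at the start in capitals. The coordinates are of that build and not of hg19, which the submitters' processing notes name.
RPL21 (chr13:27251543-27251572, plus strand): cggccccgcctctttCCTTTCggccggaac
RPL34 (chr4:108620561-108620590, plus strand, the first of its 2 annotated starts; the other has no run): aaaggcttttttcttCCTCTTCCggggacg
RPL9 (chr4:39458908-39458937, minus strand): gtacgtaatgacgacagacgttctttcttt
RPL12 (chr9:127451392-127451421, minus strand): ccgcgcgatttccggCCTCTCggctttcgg
RPL28 (chr19:55385917-55385946, plus strand): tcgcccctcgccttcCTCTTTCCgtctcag
RPLP0 (chr12:120201097-120201126, minus strand): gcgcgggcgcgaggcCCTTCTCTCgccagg
RPS25 (chr11:119018329-119018358, minus strand): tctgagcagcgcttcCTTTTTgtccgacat
RPS19 (chr19:41860240-41860269, plus strand, likewise the first of 2): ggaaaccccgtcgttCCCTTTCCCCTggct
RPS6 (chr9:19380222-19380251, minus strand): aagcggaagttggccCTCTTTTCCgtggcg
RPS29 (chr14:49598696-49598725, minus strand): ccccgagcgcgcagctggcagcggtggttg
In 8 of these 10 windows the letters from the annotated start on form such a run, and in RPL9 and RPS29 they do not. The search was anchored at the start: in all of the 8 but RPL12 the base just before it is a pyrimidine too, so the stretch of pyrimidines reaches upstream of the annotation.

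Of the 75 members, 61 matched the promoter table by symbol. Of these, 45 (73.8%) had a run of at least 5 pyrimidines beginning with C counted from an annotated start (any start where there are several), 27 of 37 large and 18 of 24 small subunit genes, against 5.14% of all 27305 symbols in the table. Within 10 bases of a start, 56 members (91.8%) had such a run, against 38.4% of all symbols. The letters CCGGAAG, searched on both strands of the 300-base window, were in 36.1% of members and 12.2% of all symbols, and AAGATGG in 13.1% and 7.11%. A match of letters is a description of the window and not a binding site. The other 14 members, among them RPL23A, RPL5 and RPL8, were not matched.

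Reads of the family were a slightly smaller share of the inhibitor libraries than of the DMSO libraries. The 75 rows held 10.3%, 10.3% and 10.6% of all counts in inhibitor 1, 2 and 3, and 10.8%, 10.9% and 10.7% in DMSO 1, 2 and 3. After TMM scaling, which sets libraries against each other by the bulk of their genes, the summed CPM of the large subunit genes was 64790, 65154 and 68032 in the inhibitor libraries and 71808, 69370 and 73172 in the DMSO libraries. The small subunit sums were 35063, 35749 and 36223 against 39925, 39619 and 37483. The 3 inhibitor sums lay below the 3 DMSO sums for both subunits.

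For the large subunit, 65992 ± 1776 CPM (SD, n = 3) stood against 71450 ± 1926, a difference of -7.64% (-6.51% without DMSO 3), and for the small subunit 35678 ± 583 CPM (SD, n = 3) against 39009 ± 1330, a difference of -8.54% (-10.3% without DMSO 3). Part of this gap is set by the scaling. With library totals only, the large subunit held 6.73% ± 0.152 (SD, n = 3) of counts against 6.99% ± 0.0931, and the small subunit 3.64% ± 0.037 against 3.82% ± 0.164, where DMSO 3 at 3.63% lay within the inhibitor range. No test was made of a sum over chosen genes. A bulk measurement cannot tell fewer cells of a type from less RNA per cell.

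**Figure D1:**
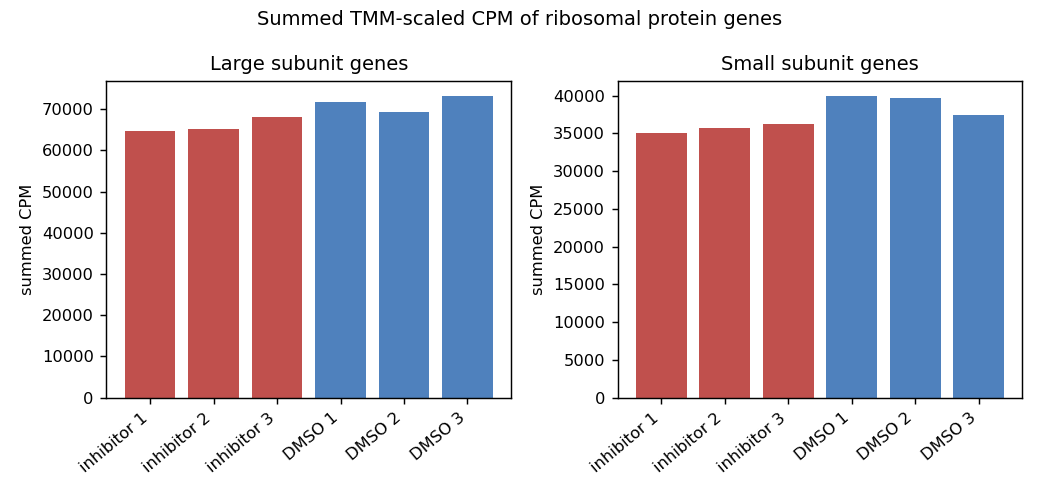
Summed TMM-scaled CPM (y axis, from 0) of the 45 large and 30 small subunit genes in each of the 6 libraries (x axis), with inhibitor libraries in red and DMSO libraries in blue. The inhibitor bars are below the DMSO bars in both panels, with means of 65992 against 71450 CPM and 35678 against 39009 CPM.

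Gene by gene the differences were small, and 1 ribosomal protein gene passed the test. By edgeR's quasi-likelihood test with Benjamini-Hochberg adjustment over all 11216 genes tested, RPL21 was lower in the inhibitor libraries and no member was higher, among 44 large and 28 small subunit genes tested. Over all genes tested 3.87% were called, 1.95% higher and 1.92% lower, and the members' 1.39% lower is close to that. At an unadjusted p under 0.05 there were 9 members (12.5%), against 19.5% of all genes. The median log2 fold change was -0.082 for the large and -0.11 for the small subunit, against -0.0044 for all tested genes. Of the 72 tested members, 59 (81.9%) had a log2 fold change below 0, 34 large and 25 small, against 50.6% of all tested genes.

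The depth behind these values was high for most members. Of the 72 tested, 63 had a mean of at least 1000 counts per library, from RPL31 at 34.2 counts to RPL4 at 87482 counts. The SE of the log2 fold change had a median of 0.124 and ranged from 0.0983 to 0.249. Each gene was read through its own amplicon, so counts do not rank the mRNAs of different genes, and only the same gene is compared between libraries.

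**Figure D2:**
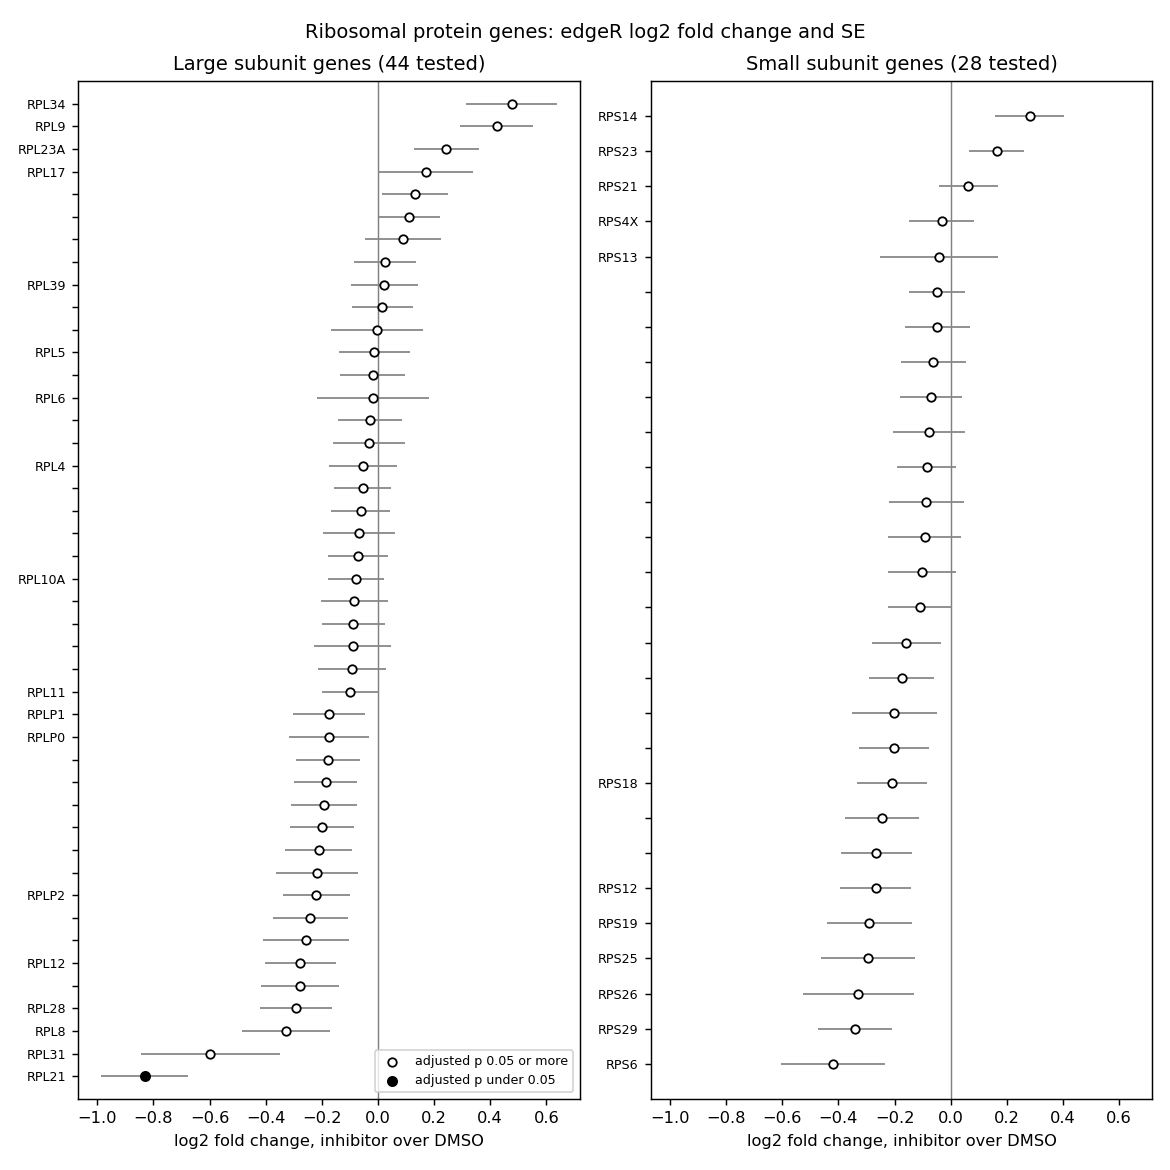
Log2 fold change, inhibitor over DMSO (x axis), with its SE as a bar, for each tested large subunit gene (left, 44) and small subunit gene (right, 28), sorted by value, with the names of the genes described in the text. RPL21, the filled point at -0.83, is the single gene with an adjusted p under 0.05, and most open points lie slightly below 0.

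RPL21, a large subunit protein gene, stood at 18.9, 22.6 and 19.6 CPM in inhibitor 1, 2 and 3 and at 29.3, 38.9 and 40.6 CPM in DMSO 1, 2 and 3. All 3 inhibitor libraries were below all 3 DMSO libraries. The log2 fold change was -0.83, with an SE of 0.155 and an adjusted p of 0.00813 in edgeR's test, so RPL21 fell. The call was lost without inhibitor 1 (adjusted p = 0.0784), inhibitor 3 (0.0662) or DMSO 2 (0.06), while the log2 fold change stayed between -0.97 and -0.76 when any 1 library was left out. RPL21 has many processed pseudogenes in the genome. The sources used here do not give how reads that fit several copies were counted. The 25 rows named as ribosomal protein pseudogenes by the same symbols held 1769 counts in all 6 libraries together. The row named for an RPL21 copy, RPL21P44, held 6 of these, and the others were named for copies of other members. These counts do not show where reads of RPL21 copies without a row went.

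At the upper end of the large subunit stood RPL34 and RPL9. RPL9 had 147, 134 and 122 CPM in the inhibitor libraries and 93.8, 93.4 and 114 CPM in the DMSO libraries, so the groups did not overlap. Its log2 fold change was 0.42 (SE 0.131), which did not pass (edgeR adjusted p = 0.0877). RPL34 had 31.6, 29.8 and 34.6 CPM with inhibitor and 17.8, 24.3 and 27.2 CPM with DMSO, a log2 fold change of 0.48 (SE 0.162, adjusted p = 0.117). RPL23A, a protein beside the mouth of the exit tunnel, was at 0.24 (SE 0.116, adjusted p = 0.269), again without overlap, from 111 to 122 CPM against 93.6 to 102 CPM. RPL17, which lines the exit tunnel, was at 0.17 (SE 0.17), with means of 8.82 and 7.86 CPM.

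At the lower end, RPL31, the member with the fewest counts among those tested, was at -0.60 (SE 0.249, adjusted p = 0.203), with 1.96, 3.03 and 2.18 CPM against 3.99, 3.27 and 3.6 CPM. RPL8, a protein close to the peptidyl transferase centre, was at -0.33 (SE 0.156, adjusted p = 0.267), and RPL28 at -0.29 (SE 0.128, adjusted p = 0.227). RPL8 passed without DMSO 3, at -0.48 (edgeR adjusted p = 0.00174). RPL12, at the base of the stalk, was at -0.28 (SE 0.128, adjusted p = 0.252). In RPL12 the inhibitor libraries (1358 to 1441 CPM) lay below DMSO 1 and 2 (1847 and 1885 CPM) but not below DMSO 3 (1366 CPM). The best counted large subunit genes differed little: RPL4, of the exit tunnel, was at -0.05 (SE 0.121) and RPL11 at -0.10 (SE 0.102).

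In the small subunit, RPS14 had the highest log2 fold change, 0.28 (SE 0.123, adjusted p = 0.226). Its values were 145, 152 and 141 CPM with inhibitor and 105, 130 and 126 CPM with DMSO, with no overlap. RPS23, a protein of the decoding centre, had 2337, 2302 and 2337 CPM against 2089, 2072 and 2067 CPM. The log2 fold change of 0.16 had the smallest SE of all 72 tested members, 0.0983, and it did not pass (adjusted p = 0.384). RPS21 was at 0.06 (SE 0.105), and RPS4X, the X-linked copy of a pair of genes, at -0.03 (SE 0.116).

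RPS6, whose protein is phosphorylated by the S6 kinases under mTORC1, had the lowest value of the small subunit, -0.42 (SE 0.186, adjusted p = 0.232). Its DMSO mean rested on 1 library. The inhibitor libraries held 252, 266 and 251 CPM and the DMSO libraries 249, 303 and 477 CPM, and without DMSO 3 the log2 fold change was -0.12 (SE 0.101, adjusted p = 0.415). Without DMSO 1 it was -0.61 and passed (edgeR adjusted p = 0.0338). RPS29, by contrast, did not overlap between the groups, at 25.6, 28.4 and 28.1 CPM against 37.6, 35.1 and 31.1 CPM (log2 fold change -0.34, SE 0.133, adjusted p = 0.169). RPS26, which lies at the mRNA exit channel, was at -0.33 (SE 0.198), with means of 6.55 and 8.19 CPM. RPS12, a protein of the head, was at -0.27 (SE 0.127). Without DMSO 3, RPS29 passed (adjusted p = 0.0105) and so did RPS12 (0.0179).

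Over the family, 5 members were higher and 5 lower in all 3 inhibitor libraries than in all 3 DMSO libraries, 6.94% each. Over all tested genes the shares were 13.7% higher and 11.8% lower. The higher ones were RPL9, RPL34, RPL23A, RPS14 and RPS23, and the lower ones RPL21, RPL31, RPL10A, RPS18 and RPS29.

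**Figure D3:**
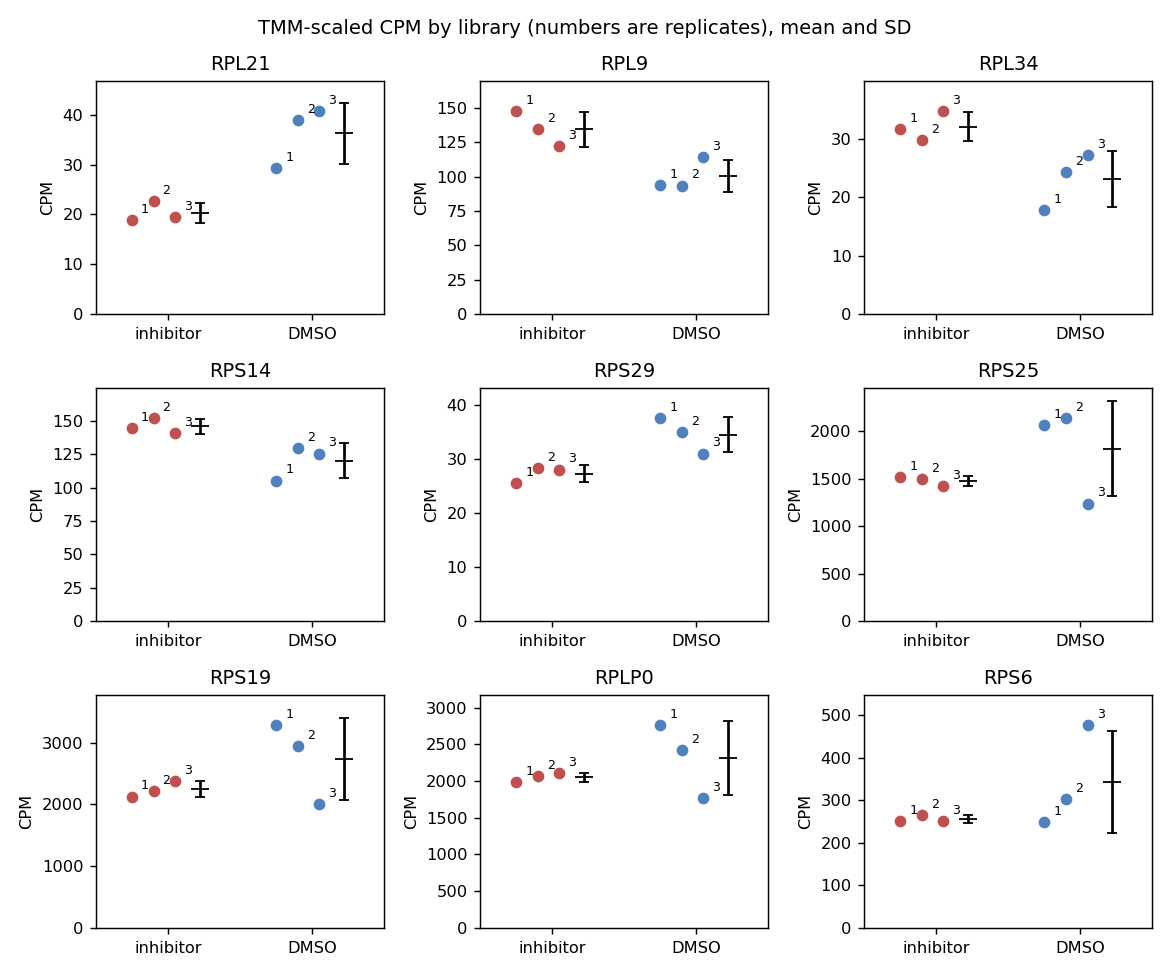
TMM-scaled CPM (y axis, from 0) of 9 ribosomal protein genes in the inhibitor (red) and DMSO (blue) libraries, with the replicate number beside each point and the mean ± SD as a bar. RPL21, RPL9, RPL34, RPS14 and RPS29 do not overlap between groups, and in RPS25, RPS19, RPLP0 and RPS6 the point of DMSO 3 lies apart from DMSO 1 and 2.

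None of the groups by role described next held a called gene. The stalk proteins RPLP0, RPLP1 and RPLP2 recruit the translation factors that hydrolyse GTP. RPLP0 was at 1985, 2064 and 2104 CPM with inhibitor and at 2763, 2419 and 1764 CPM with DMSO, where DMSO 3 was the lowest of the 6 libraries. The log2 fold changes were -0.18 (SE 0.142) for RPLP0, -0.17 (SE 0.13) for RPLP1 and -0.22 (SE 0.119) for RPLP2, with edgeR adjusted p from 0.326 to 0.544. RPL5 and RPL11, which with 5S rRNA form the particle that binds MDM2, were at -0.01 (SE 0.128) and -0.10 (SE 0.102).

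All 13 tested proteins of the small subunit head, the part that moves with tRNA and mRNA, had a log2 fold change below 0. Their median was -0.20, with a range from -0.34 to -0.05, and none passed. Over the whole small subunit, 25 of 28 (89.3%) were below 0, with a median of -0.11, against 50.6% of all tested genes. RPS19, a gene mutated in Diamond-Blackfan anaemia, a failure of red cell formation, was at 2127, 2218 and 2382 CPM against 3284, 2938 and 2000 CPM (log2 fold change -0.29, SE 0.152, adjusted p = 0.311). The 3 exit tunnel genes RPL4, RPL17 and RPL39 had a median of 0.02.

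The spread between libraries was wider in the DMSO group. The SD of log2 CPM had a median over members of 0.0829 among the inhibitor libraries and 0.186 among the DMSO libraries, and it was the larger among DMSO libraries in 55 of 72 members (76.4%). Over tested genes with a mean of at least 20 CPM these values were 0.0947, 0.187 and 76.9%, so the members spread like other well counted genes. DMSO 1 and 2 differed by a median of 0.137 on the log2 scale over members, and DMSO 3 differed from their mean by 0.282. DMSO 3 held the highest value of the 6 libraries in 20 of 72 members and the lowest in 15, against 25.8% and 25.2% of all tested genes. DMSO 1 held the highest in 22 and the lowest in 13 (22.5% and 24.0% of all genes). For DMSO 2 these were 17 and 6 (11.7% and 12.5% of all genes). Inhibitor 1 held the lowest value in 20 members, the most of any library, against 12.05% of all genes, and the highest in 4 (13.1%).

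**Figure D4:**
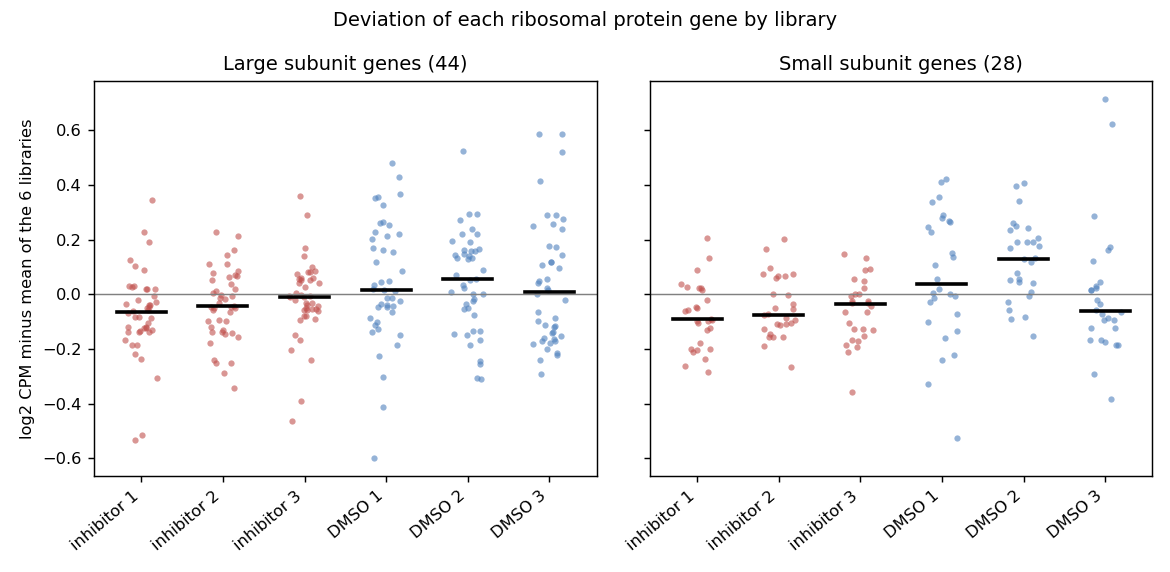
Log2 CPM minus the mean of the 6 libraries (y axis) for each tested ribosomal protein gene, by library (x axis), with large subunit genes on the left, small subunit genes on the right and black bars for the medians. DMSO medians are 0.02, 0.05 and 0.01 for the large subunit and 0.04, 0.13 and -0.06 for the small subunit, and the points of DMSO 1 and DMSO 3 scatter most widely.

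The departure of DMSO 3 from DMSO 1 and 2 went in part with base composition among the members. On the log2 scale, DMSO 3 minus the mean of the other two was -0.76 for RPS25, -0.63 for RPS19 and -0.55 for RPLP0, and 0.96 for RPS13, 0.92 for RPL6 and 0.80 for RPS6. Across the 72 members, which share these libraries and are not independent, this deviation was lower at higher GC content of the annotated transcripts (Pearson -0.395, Spearman -0.415), against -0.438 and -0.454 over 11097 genes. Of the 36 members with the higher GC content, 27 were lower in DMSO 3 than in the mean of DMSO 1 and 2, against 16 of the other 36. The median log2 fold change was -0.175 over the 36 of higher GC content and -0.057 over the other 36. Without DMSO 3 these medians were -0.24 and -0.042, so the members still differed along GC content in that fit. The cause was not tested. With each library's GC trend removed, RPL21 remained the single member called (adjusted p = 0.00185).

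**Figure D5:**
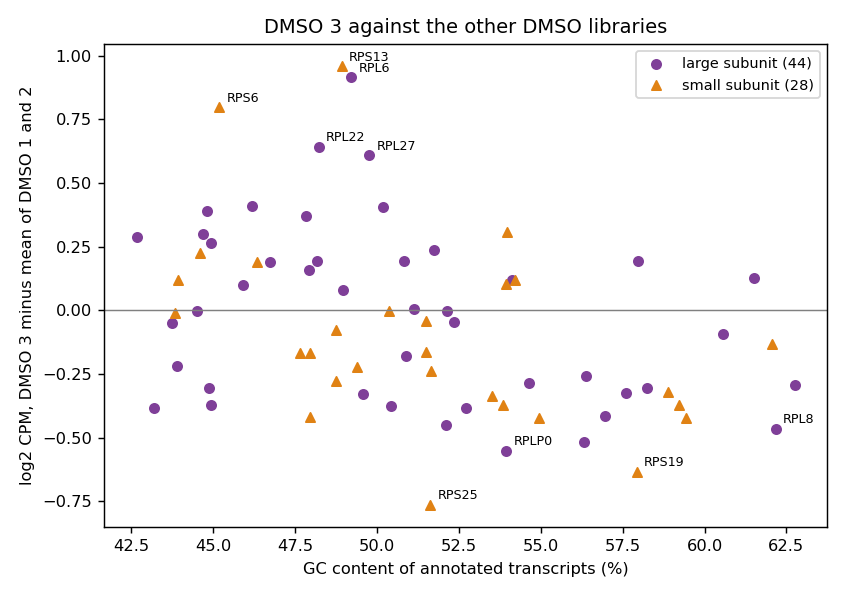
Log2 CPM of DMSO 3 minus the mean of DMSO 1 and 2 (y axis) against the GC content of annotated transcripts in percent (x axis) for 44 large (circles) and 28 small subunit genes (triangles). Members of high GC content lie mostly below 0. RPS25, RPS19 and RPLP0 are among the lowest points, and RPS13, RPL6 and RPS6 lie highest. Of these, RPS25, RPS13 and RPL6 are near the members' median GC content of 50.6%.

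Without DMSO 3 the count of called members changed from 1 to 27. In that fit 22 members (30.6%) were lower and 5 (6.94%) higher in the inhibitor libraries, against 11.1% lower and 10.8% higher (21.9% in either direction) of all 11386 genes tested. The large subunit gave 13 lower and 3 higher of 44, and the small subunit 9 lower and 2 higher of 28. Below 0 were 52 of the 72, against 49.9% of all genes. The inhibitor libraries lay below DMSO 1 and 2 without overlap in 29 members and above them in 11, against 22.9% and 25.9% of all genes. The median log2 fold change was -0.12 over members and 0.000713 over all genes, and the median SE over members was 0.0955. With all libraries kept, in limma-voom with library quality weights (0.264 for DMSO 3, 0.615 for DMSO 1, 2.39 for DMSO 2 and 1.26 to 1.43 for the inhibitor libraries, so that DMSO 2 counted most in its group), 21 members (29.2%) were lower and 3 (4.17%) higher, against 10.9% and 12.4% of all genes (23.2% in either direction), and 22 members were called in both settings. With the GC trend removed and DMSO 3 left out, 19 were lower and 5 higher, against 9.77% and 9.98% of all genes (19.7% in either direction). With library totals only and DMSO 3 left out, 15 were lower and 7 higher, against 7.33% and 14.7% of all genes (22.1% in either direction). The choice to leave out DMSO 3 was made with its values known, and this direction has no other libraries to be tested on.

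The lower members of the fit without DMSO 3 came from several parts of the ribosome. RPS25, a head protein, had 1516, 1497 and 1418 CPM with inhibitor and 2065, 2134 and 1236 CPM with DMSO, and its log2 fold change went from -0.29 (SE 0.166, edgeR adjusted p = 0.348) to -0.52 (SE 0.0893, adjusted p = 7.52e-05) without the last of these libraries. RPS19 went from -0.29 to -0.49 (SE 0.0912, adjusted p = 0.000223), RPL28 to -0.43 (SE 0.0913, adjusted p = 0.000839) and RPL12 to -0.43 (SE 0.0896, adjusted p = 0.000828). The stalk genes were called too, RPLP0 at -0.35 (SE 0.0911, adjusted p = 0.00535), RPLP1 at -0.31 (SE 0.0958, 0.0203) and RPLP2 at -0.27 (SE 0.099, 0.0496). RPLP2 did not pass in limma-voom with quality weights (adjusted p = 0.1225), while RPLP0 (0.0486) and RPLP1 (0.0174) did. With the GC trend removed and DMSO 3 left out, RPLP2 was at -0.13 (edgeR adjusted p = 0.339), and RPLP0 (0.012) and RPLP1 (0.0323) passed. With library totals only and DMSO 3 left out, RPLP0 passed (0.0202), and RPLP1 (0.0714) and RPLP2 (0.148) did not. Of the 13 head proteins, 7 were lower, against 9 of all 28 small subunit genes and 11.1% of all genes tested.

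The 5 higher members without DMSO 3 were RPL34 at 0.59 (SE 0.137), RPL9 at 0.51 (SE 0.106, edgeR adjusted p = 0.000746), RPL6, RPS13 and RPS14. RPL6 was at 0.34, and at -0.02 with DMSO 3, where it had 2421 CPM against 1211 and 1359 CPM in DMSO 1 and 2. RPS13 was at 0.33, and at -0.04 with DMSO 3, where it had 2399 CPM against 1083 and 1404 CPM. Called genes were found with and without the pyrimidine run. Of 42 tested members with a run at a start, the median log2 fold change without DMSO 3 was -0.125 and 19 were called. Of 16 without it the median was -0.136 and 5 were called. Over all genes 21.9% were called in that fit. The 14 members not matched in the promoter table are left out of these counts.

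RPL13A, RPS24 and RPSA were not tested because their counts were too low. RPL13A had 7 counts with inhibitor and 12 with DMSO, summed over 3 libraries each, a ratio of 0.64 with an exact 95% interval of 0.213 to 1.76 that covers counting error only. RPS24 had 10 and 18 counts, a ratio of 0.609 (0.251 to 1.39), and RPSA 1 and 2 counts. No difference was detectable at this depth.

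Genes related to the family were described from lists of the same pathway. Of the ribosomal genes outside the symbol rule, FAU was at -0.10 and RACK1 at -0.17, and neither passed (smallest edgeR adjusted p = 0.429). Without DMSO 3, FAU was at -0.27 and passed (adjusted p = 0.048), and RACK1 was at -0.073 (0.592). Of 8 paralogs 5 were tested and none passed. RPL22L1, the paralog of RPL22, had the largest difference, with 231, 271 and 254 CPM against 269, 313 and 447 CPM, a log2 fold change of -0.45 (SE 0.164, adjusted p = 0.146). It passed with each library's GC trend removed (edgeR adjusted p = 0.0331). DMSO 3 held its highest value, and without that library RPL22L1 was at -0.22 (adjusted p = 0.113). With the GC trend removed and DMSO 3 left out it was at -0.345 and passed (adjusted p = 0.00883). With library totals only and DMSO 3 left out it was at -0.156 and did not pass (0.283). In limma-voom with quality weights it was at -0.316 and passed (adjusted p = 0.0225).

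Of 15 other mRNAs known to carry a TOP tract, such as those of the elongation factors, none passed with all libraries, and the median log2 fold change was -0.086, against -0.089 for the 72 ribosomal protein genes. HNRNPA1, an RNA-binding protein gene, was the farthest from 0 at -0.34 (SE 0.149, edgeR adjusted p = 0.234). Without DMSO 3, 4 of the 15 were lower and 2 higher, against 11.1% and 10.8% of all genes. The lower ones were HNRNPA1 at -0.49 (edgeR adjusted p = 0.00105) and the elongation factor genes EEF1D at -0.48 (0.000413), EEF1B2 at -0.39 (0.00329) and EEF2 at -0.29 (0.0271). The higher ones were EIF3E at 0.31 (0.0225) and NAP1L1 at 0.28 (0.04). In limma-voom with quality weights 3 of the 15 were lower and 0 higher, against 10.9% and 12.4% of all genes. The counts were again 3 and 0 with the GC trend removed and DMSO 3 left out, against 9.77% and 9.98%. EEF1A1, the elongation factor that delivers tRNA, was at -0.06 (SE 0.0963). Among 12 genes of mTORC1 and its regulators, 1 rose and none fell, against 1.95% and 1.92% of all genes. EIF4EBP2, a repressor that binds the cap-binding protein eIF4E, had 94.4, 97.7 and 82.3 CPM with inhibitor and 65.5, 66.4 and 63.4 CPM with DMSO, a rise of 0.49 (SE 0.122, adjusted p = 0.0394).

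Next were LARP4, an RNA-binding protein gene, at 0.41 (SE 0.121, adjusted p = 0.074), EIF4E itself at 0.46 (SE 0.139, adjusted p = 0.0808) and MLST8, an mTOR complex subunit, at -0.46 (SE 0.139, adjusted p = 0.0831), each without overlap between the groups and none past the test. Without DMSO 3, 3 of the 12 were higher (EIF4EBP2, EIF4E and LARP4) and 2 lower (MLST8 and EIF4EBP1), against 10.8% and 11.1% of all genes. MTOR was at -0.06 (SE 0.126) and LARP1 at 0.21 (SE 0.13, adjusted p = 0.4).

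The call of EIF4EBP2 was lost with a replicate block (adjusted p = 0.0762) and without any of inhibitor 1, 2 or 3 or DMSO 1 or 2 (adjusted p from 0.0538 to 0.232), and kept without DMSO 3 (0.00251). Of 8 chaperones that carry single ribosomal proteins to the ribosome none passed, with a median of 0.094. TSR2, which escorts RPS26, was at 0.39 (SE 0.148, edgeR adjusted p = 0.157), with 24.0, 26.7 and 21.7 CPM against 17.9, 20.8 and 16.4 CPM and no overlap.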

How the data were processed

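RNA of 6 HT-1080 libraries was read with the Ion AmpliSeq Transcriptome panel, per the labels. The authors deposited raw counts per gene symbol, as the whole numbers show. Tools listed without a role, per the submitters' processing notes, are HTSeq and DESeq2 1.20.0, and the build is hg19. Which aligner was used was not given in the sources used here. No molecular identifiers are named, so copies of a molecule made in amplification could not be told from separate molecules. The exact intervals treat each read as a separate molecule, cover the counting of reads only and may be too narrow. The members, lists, tests and rule for named genes were chosen with earlier results of these data known. The rule named called members, the 4 highest and 4 lowest log2 fold changes and 2 best counted genes of each subunit, members at an unadjusted p under 0.05, RPLP0, RPLP1, RPLP2, RPL5, RPL11, RPSA, RPS6 and RPS19, the 6 smallest adjusted p without DMSO 3, untested members, and in each other list the called genes or else the largest difference. Other named genes, such as RPS13, RPL6, RPL10A, RPS18, RPL39, EEF1A1, EEF1D, EIF4E, LARP4 and MLST8, were added after their values were seen. A few genes that these rules name are not reported here, and counts and sums over the family include all members. Counts were fitted with edgeR 4.0.16 in R 4.3.3 on all genes passing filterByExpr (minimum count 10, minimum total 15), with TMM scaling, a quasi-likelihood test on the group and Benjamini-Hochberg adjustment at 0.05. The SE is the log2 fold change divided by the square root of F. Log2 CPM used a prior count of 2. Alternatives were DESeq2 1.42.0, limma-voom (limma 3.58.1), other scalings and filters, a replicate block, each library left out, and each library's GC trend removed (loess span 0.5, GENCODE v29 transcripts, 98.9% of genes). The fits were also run on simulated counts, which held no library set apart and no GC trend. That run does not bear on the calls that depend on DMSO 3.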

Additional observations from a re-analysis of the deposited data

How the results depend on the processing

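The large subunit count of called genes (1) became 15 with library quality weights and 0 to 16 with 1 library left out, and the small subunit count (0 in edgeR, DESeq2 and limma-voom, with 3 members at unadjusted p under 0.05 in edgeR) became 9 with quality weights, 1 (RPS6) without a filter on low counts and 0 to 11 with 1 library left out. The high ends are those without DMSO 3; in settings added after seeing the data, leaving it out with library totals only gave 14 and 8, and with the GC trend removed 14 and 10. Over all genes the count of 434 became 831 without a filter, 2606 with quality weights, 693 after removal of the GC trend, 99 to 2496 with 1 library left out, and 2512 and 2224 in the added settings. Library totals only turned 219 higher and 215 lower genes into 336 and 163, with a median of 0.056 over all genes, -0.021 over the large and -0.045 over the small subunit. The log2 ratio of summed CPM, -0.11 and -0.13 for the large and small subunit, became -0.054 and -0.069 with library totals, and lay between -0.14 and -0.10 and between -0.17 and -0.12 with 1 library left out. The same-numbered libraries did not deviate together (correlations -0.0414, -0.0378 and -0.0882, and none correlated best with its own number). The replicate block gave 1 large and 0 small subunit genes and 327 genes in all.

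Members near 0 changed sign. RPL4 was at 0.0091 with library totals, 0.0801 with quality weights, 0.15 and 0.076 in the added settings, and -0.13 to 0.081 with 1 library left out. RPL5 was at 0.049 with library totals, 0.0021 with limma-voom, 0.11 with quality weights, 0.19 and 0.071 in the added settings, and -0.0900 to 0.12 with 1 library left out. RPS4X was at 0.028 with library totals and -0.13 to 0.022 with 1 library left out, and RPL11 at 0.023 with library totals and DMSO 3 left out. The cause was not tested.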
